A study of Homo sapiens with 6 samples.

Results

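Of 7772 AGO2 peaks from 22RV1 prostate cancer cells, 259 peaks were annotated to an exon of a non-coding RefSeq transcript. These non-coding transcript peaks were chosen by the authors' annotation alone, with no use of score or site. They carry 161 gene names and 162 transcript accessions. Most of the names belong to genes that RefSeq types as protein-coding, with 215 of the 259 peaks (83.0%, exact 95% interval 77.9 to 87.4%) in 126 genes. Their non-coding transcripts are called non-coding isoforms here. The 126 include TUG1, MMP24-AS1, AATK-AS1, MSL3P1 and NUDT4P1, whose names are those of non-coding RNAs or pseudogenes. The other 44 peaks belonged to long non-coding RNAs, antisense RNAs, pseudogenes and hosts of small RNAs.

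The peaks come from AGO2 HITS-CLIP, in which ultraviolet light fixes proteins to bound RNA and the RNA held by an AGO2 antibody (4F9) is sequenced. 22RV1, an established human prostate carcinoma line, was transfected with 20 nM of a mimic of miR-194 (3 libraries) or of a negative control (3 libraries), in suspension, and irradiated after 24 h. All 6 libraries come from this single line, and the labels do not say whether those of a group were separate cultures. The authors deposited 1 merged list with 1 whole-number score per peak and no value per library and so no comparison of the mimic with the control is possible from it. What the score measures, whether the libraries were pooled for it, and the sequencing depth behind it are not given in the sources used here.

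AGO2 carries a microRNA whose seed, bases 2 to 8, pairs with the target transcript. Coding messages are bound mostly in 3' untranslated regions (UTRs) and also in coding sequence, but long non-coding RNAs and pseudogene transcripts can be bound as well. A coding gene often also makes transcripts without a usable reading frame, for example splice forms that are subject to nonsense-mediated decay, and RefSeq lists many of these as non-coding. Such isoforms usually share exons, including the 3' terminal exon, with the coding messages of the gene.

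The mature microRNA and the listed target sites are shown here because every site class below is read from them. In the microRNA, taken from the RefSeq table of GRCh38.p14 (loci on chromosomes 1 and 11), the capitals mark the seed.
hsa-miR-194-5p: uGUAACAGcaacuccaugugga
In the listed sites, written as DNA on the peak's strand, the capitals mark the unbroken run of bases that matches the seed, with an A at its 3' end where one is listed. Other bases are in lower case, including the c of both variants that faces base 8 of the microRNA, which a mismatch parts from the run. All 13 peaks with an 8mer (CTGTTACA, the seed match followed by A) are given.
PRC1-AS1: tCTGTTACA
VEZT: cCTGTTACA
ANKFY1: cCTGTTACA
TMEM161B: aCTGTTACA
GSTM3: tCTGTTACA
IL6ST: gCTGTTACA
LOC100294145: tCTGTTACA
KCTD20: tCTGTTACA
GK5: aCTGTTACA
HCG18: tCTGTTACA
FRG1HP: tCTGTTACA
MED20: tCTGTTACA
FMR1: tCTGTTACA
Shorter matches are shown by 1 high-scoring site each of the 7mer-m8 (CTGTTAC), the 7mer-A1 (TGTTACA) and the 6mer (TGTTAC), and by both sites without a 6mer, called variants.
CSNK1D (7mer-m8): tCTGTTACc
STRBP (7mer-A1): atTGTTACA
DGCR2 (6mer): ttTGTTACt
MTHFD2 (variant): tcaGTTACA
SNHG16 (variant): ccaGTTACA

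Every one of the 74 sites listed on the peaks' own strand had 9 bases, and 72 held the 6mer from place 3, counted from 1 at the 5' end. Place 2, which faces base 8 of the microRNA, was C and so a match in 32 of the 72 sites (44.4%), T in 22, A in 13 and G in 5. Place 9 was A in 37 sites (51.4%), T in 22, G in 7 and C in 6. The string of the PRC1-AS1 site was the commonest, with 8 sites in 8 genes. Another 3 sites were listed on the opposite strand, in FMR1, ITPRIPL2 and TMCO1, and only that of ITPRIPL2 was a 7mer.

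A site of 7 or 8 matching bases (a 7mer match below, 8mers included) was listed in 53 of the 259 non-coding transcript peaks, or 20.5% (exact 95% interval 15.7 to 25.9%), against 386 of 2567 coding exon peaks, or 15.0% (13.7 to 16.5%), 354 of 1791 3' UTR peaks, or 19.8% (17.9 to 21.7%), and 985 of 7513 peaks outside the class, or 13.1% (12.4 to 13.9%). Across all peaks the share was 13.4%. The interval of the non-coding transcript peaks lay above that of all other peaks, overlapped that of coding exons and held the value of 3' UTRs. No test was made of these shares, because peaks of 1 list are not replicates of a condition and neighbouring peaks share a transcript. The intervals cover counting error only.

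By longest site, 13 non-coding transcript peaks had an 8mer (5.02%, against 4.16% of all peaks), 17 a 7mer-m8 (6.56%), 23 a 7mer-A1 (8.88%), 16 a 6mer (6.18%) and 2 a variant. Any listed site was present in 71 peaks (27.4%, against 19.4% of all peaks), and 188 peaks (72.6%) had none. Among these 5 classes the variant was the one in which non-coding transcript peaks and coding exon peaks had separate intervals, with 0.772% (0.0937 to 2.76%) in non-coding transcript peaks and 6.0% (5.11 to 6.99%) in coding exon peaks. Sites of both parts were listed with the same layout, 9 bases with any 6mer from place 3. The 6mer was held by 72 of 74 sites in non-coding transcript peaks and by 523 of 691 in coding exon peaks. Whether both parts were searched with the same settings is not given, so the difference in variants may not be one of the peaks. The 3' UTR sites were listed as 10 bases with the 6mer from place 4, so shares that include variants are not directly comparable with 3' UTRs.

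**Figure D1:**
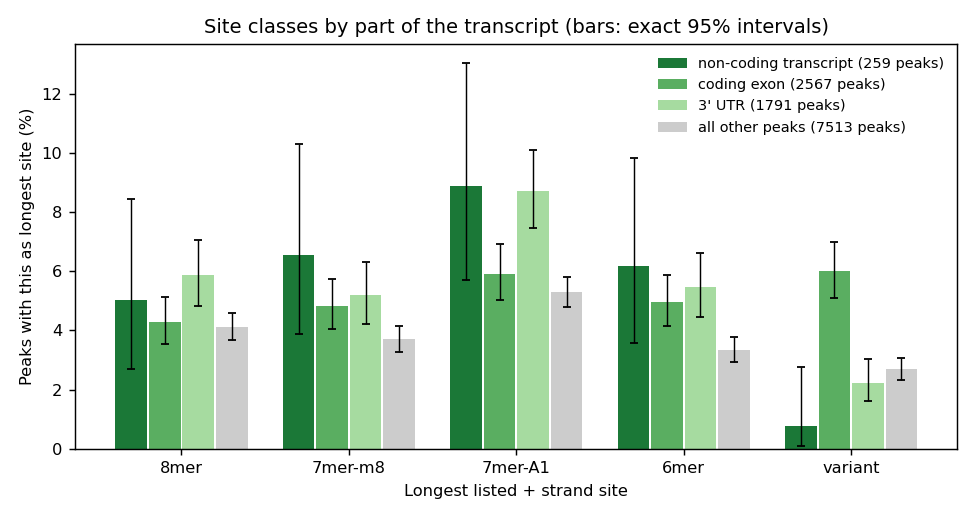
Share of peaks (%, y axis) by longest site listed on the peak's strand (x axis) in non-coding transcript, coding exon, 3' UTR and all other peaks; lines are exact 95% intervals. Among non-coding transcript peaks 8.88% had a 7mer-A1 and 0.772% a variant, against 6.0% with a variant in coding exons.

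The score of non-coding transcript peaks had a median of 16 (interquartile range 12 to 27, full range 5 to 321), against 17 (12 to 31) in coding exons, 17 (12 to 35) in 3' UTRs and 15 (12 to 23) in all other peaks. Their median length was 81 nt, against 70 nt in coding exons, 76 nt in 3' UTRs and 66 nt elsewhere. Scores were higher where a site was listed. The median was 55 with an 8mer (25 to 77, n = 13), 17 with a 7mer-m8 (15 to 43, n = 17), 24 with a 7mer-A1 (18.5 to 33.5, n = 23) and 29.5 with a 6mer (19.25 to 49, n = 16), against 14 without a site (12 to 19.25, n = 188). The order did not follow the length of the match, since the 6mer median lay above both 7mer medians, and the full range of each of these classes overlapped that of peaks without a site, 5 to 120.

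Read the other way, 29 of the 78 non-coding transcript peaks scoring 23 or more had a 7mer match (37.2%, 26.5 to 48.9%), 17 of the 109 scoring between 12 and 23 (15.6%), and 7 of the 72 scoring 12 or less (9.72%, 4.00 to 19%). In coding exons these shares were 29.9%, 9.41% and 3.11%. Longer peaks have more room for a site, so scores were also read within length classes. The medians with a 7mer match and without a site were 24.5 and 13 in peaks of up to 65 nt, 20.5 and 16 in those of 66 to 100 nt, and 49 and 15 in those over 100 nt. The difference thus had the same direction in each of the 3 length classes. The middle of a 7mer match lay a median of 12.25 nt from the middle of its peak, and 40 of 56 such sites (71.4%) lay within 20 nt of it, against 11 nt and 69.0% of 393 sites in coding exons.

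**Figure D2:**
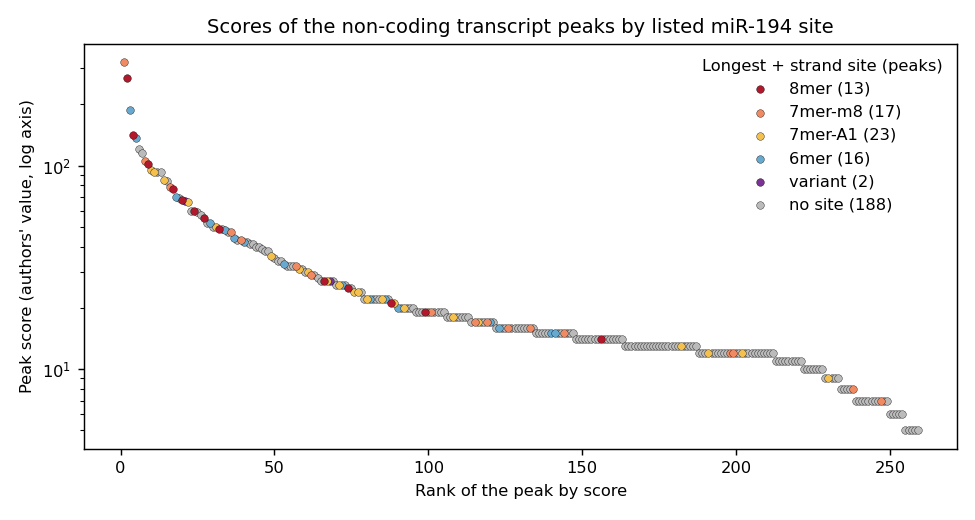
Score (authors' value, log axis) of the 259 non-coding transcript peaks against rank, coloured by longest listed site. The PRC1-AS1 peak, at 270, holds an 8mer, and the highest peak without a site has a score of 120.

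Among the non-coding isoforms of coding genes, DGCR2, which encodes a membrane adhesion receptor, had a score of 187 and a 6mer at chr22:19024676-19024888 (minus strand; coordinates here and below are on hg19), in exon 9 of 9. The DGCR2 exon held 4 more peaks without a site, which scored 8, 12, 14 and 15. VEZT, for the adherens junction protein vezatin, scored 141 in exon 4 of 12 at chr12:95656706-95656810 (plus strand), with an 8mer. EXTL2, a glycosyltransferase gene of the exostosin family, scored 137 with a 6mer at chr1:101338691-101338879 (minus strand), in the last of its 6 exons.

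High scores also occurred without any listed site. ZNF280B, a zinc finger gene, scored 120 at chr22:22841506-22841624, in exon 4 of 5. TMCO1, for a calcium channel of the endoplasmic reticulum, scored 115 at chr1:165696657-165696809, and its 5 other peaks in the same exon, 7 of 7, scored 7, 9, 16, 18 and 49. None of the 6 TMCO1 peaks had a site on its own strand.

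Among the peaks with a 7mer match in these genes, CSNK1D, for casein kinase 1 delta of the circadian clock, scored 105, and ANKFY1, for an endosomal Rab5 effector, scored 102 with an 8mer and a 7mer-m8 in 1 peak. STRBP, for a spermatid RNA-binding protein, had 95 and ARL6IP6 had 93, both with a 7mer-A1. The histone deacetylase gene HDAC2 had 78 with a 7mer-m8 in exon 6 of 15. TFAM, for the mitochondrial transcription factor, had 66, ZSWIM3 had 50, TSC22D2 had 47 and TPD52L2 had 43. Besides VEZT, ANKFY1 and IL6ST, the coding genes with an 8mer were TMEM161B (score 77), the glutathione transferase gene GSTM3 (68), KCTD20 (49), GK5 of the glycerol kinase family (27), the Mediator subunit gene MED20 (19) and FMR1, for the fragile X RNA-binding protein (14). Scores of 8mer peaks in this group thus spread from 14 to 141, a range that lies mostly within that of peaks with no site, 5 to 120.

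IL6ST encodes gp130, the shared receptor subunit of the interleukin-6 cytokines, and had 6 peaks in its last exon, 18 of 18. The peak at chr5:55234231-55234427 (minus strand) scored 85 with a 7mer-A1, and that at chr5:55232881-55232960 scored 60 with an 8mer. Another, at chr5:55233856-55233959, had a pair of 7mer-A1 sites and a score of 9. The 3 IL6ST peaks without a site scored 13, 14 and 17. A 7mer match was therefore listed in both the highest and the lowest peak of this gene.

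The listed bases of the isoform peaks were looked up in GENCODE 29 transcripts of the same gene. Of 64 sites, 51 occurred in a 3' UTR of a coding transcript, 8 in coding sequence, 1 (STRBP) in a 5' UTR and 3 (MSL3P1, ALG2 and TUG1) only in transcripts not typed protein-coding, and 1 (MMP24-AS1) was not found. A site found in several places was counted by the first of these. The reverse complement of the same bases, read as a rough background of chance matches, was not found for 60 of the 64. That of MMP24-AS1 was found, but its peak runs on the strand opposite its gene (below), so that match need not be chance. Position in the isoform went with the kind of sequence. Of 53 sites in the last exon, 49 occurred in a 3' UTR, and of 11 sites in other exons, 8 occurred in coding sequence, those of VEZT, HDAC2 and GSTM3 among them. A 9-base search does not give the place on the genome, and whether AGO2 was on the coding or the non-coding transcript of a gene cannot be told apart where they share the exon.

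**Figure D3:**
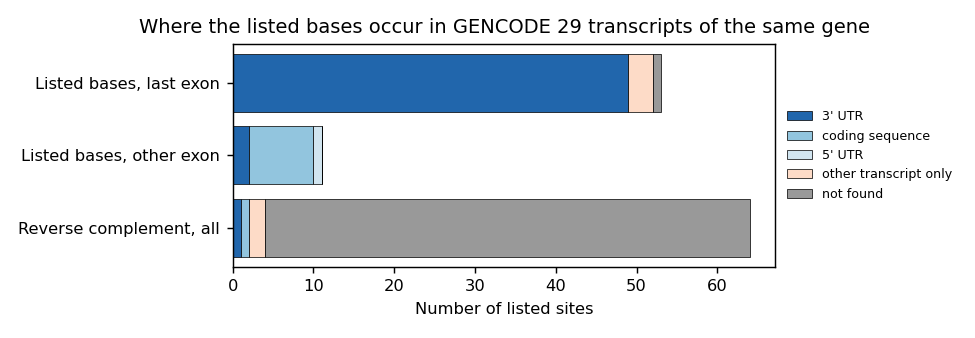
Number of sites (x axis) in isoform peaks by where their bases occur in GENCODE 29 transcripts of the same gene, for last exons, other exons and the reverse complement. In last exons 49 of 53 sites fall in a 3' UTR, in other exons 8 of 11 in coding sequence, and 60 of 64 reverse complements are not found.

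The last exon held 167 of the 215 isoform peaks (77.7%, 71.5 to 83.1%). A 7mer match was listed in 35 of these last-exon peaks (21.0%) and in 9 of the 48 peaks in other exons (18.8%, 8.95 to 32.6%), and the median scores were 16 and 17.5. Of all 259 accessions as used per peak, GENCODE 29 pairs those of 126 peaks only with transcripts typed protein-coding, of 50 only with nonsense-mediated decay transcripts, of 15 with processed transcripts and of 3 with retained introns, while those of 27 have no pair. The member genes had 65 further peaks in the list, in 37 genes: 34 in coding exons, 17 in introns, 8 at promoters, 5 at transcript ends, 1 in a 5' UTR and 0 in 3' UTRs. Of the 17 genes with both a non-coding transcript peak and a coding exon peak, 0 had a 3' UTR peak, against 222 (14.1%) of the 1574 genes with a coding exon peak and no non-coding transcript peak. No interval was computed for these shares, and 17 genes are too few to tell 0 from 14.1%. By name, no gene in this list had both a non-coding transcript peak and a 3' UTR peak. This holds for names only. CERS6 had 3' UTR peaks of up to 26, and IGF1R of up to 35. By the gene orientations compared below, the peaks named CERS6-AS1 and IRAIN run on the strands of CERS6 and IGF1R.

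Genes named as antisense RNAs, which are transcribed from the strand opposite another gene, made up 13 peaks in 12 genes. Their median score was 14 (10 to 270). They were told by the deposited name alone, among genes that RefSeq does not type as protein-coding. PRC1-AS1 stood far above the rest at 270, with an 8mer, at chr15:91509646-91509829 (minus strand). The others scored 27 or less. SLC25A30-AS1 had 27 with a 7mer-A1, RBM5-AS1 had 20 with no site, BOLA3-AS1 had 17 with a 7mer-m8, and CERS6-AS1 had 16 and 12 with none. The names do not settle the group. RefSeq now calls BOLA3-AS1 BOLA3-DT. It calls LINC00909 ZNF407-AS1 and LOC102724814 AP1G2-AS1, and both are counted below as other long non-coding RNAs. So are KCNQ1OT1, DLEU2, HCG18 and IRAIN, which GENCODE 29 types as antisense.

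Other long non-coding RNAs made up 23 peaks in 17 genes, with a median score of 14 (5 to 55), and 5 of these peaks had a 7mer match. LOC100294145 was highest at 55, with an 8mer at chr6:32871237-32871296 (plus strand). LINC00909 scored 41 without a site, and LINC01136 scored 31 without one. LOC100129931 had 34 and 6 without a site and 26 with a 7mer-A1. LOC100506688 scored 30 with a 7mer-A1. HCG18, from the major histocompatibility region, had an 8mer in a peak of 25 and no site in a peak of 19. KCNQ1OT1, the imprinted antisense RNA of the KCNQ1 locus, had 12 with a 7mer-A1 and 11 without a site. None of these peaks reached the scores seen at the top of the coding genes.

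Host transcripts, whose introns or exons carry small RNA genes, made up 3 peaks in SNHG16 and MIRLET7BHG, and 0 of them had a 7mer match. SNHG16, within which the annotation places SNORD1A, SNORD1B and SNORD1C, had 52 without a site at chr17:74559563-74559694 and 27 with a variant at chr17:74559495-74559560 (plus strand), both in its last exon. MIRLET7BHG, which spans MIRLET7A3 and MIRLET7B, had a peak of 18 in exon 1 of 6. DLEU2, named as a long non-coding RNA but known as the host of MIR15A and MIR16-1, had 35 and 14 in the last of 11 exons, both without a site. Counting every peak whose gene spans an annotated microRNA or small nucleolar RNA gene on its strand gave 15 peaks (5.79%), among them those of STRBP (MIR600) and SLC25A13 (MIR591).

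Pseudogenes, copies of a gene that have lost its coding function, made up 5 peaks in 4 genes. LOC441666 had scores of 93, at chr10:42830396-42830462 (minus strand), and 13, neither with a site. FRG1HP, named after FRG1, had an 8mer and a score of 21 at chr9:68748208-68748304 (plus strand). AACSP1 and LRRC37A4P scored 13 each without a site. The bases listed for FRG1HP were found neither in its own GENCODE transcripts nor in those of FRG1. The sources used here do not give how reads from near-identical copies were placed, so these 5 assignments are uncertain.

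Names and gene types disagreed in a few cases. TUG1, MMP24-AS1, AATK-AS1, MSL3P1 and NUDT4P1 carry names of a non-coding RNA, an antisense RNA or a pseudogene but are typed protein-coding in the RefSeq table, and are counted above with the coding genes. GENCODE 29 instead types TUG1 as a long non-coding RNA and MSL3P1 as a transcribed pseudogene. It types CRHR1-IT1 as a transcribed pseudogene and EEF1E1-BLOC1S5 as protein-coding, both counted above as other long non-coding RNAs. The 6mer bases of MSL3P1 (score 26) also occur in the coding sequence of MSL3, a chromatin protein gene. The NUDT4P1 peak (score 13) lies on chromosome 12, where NUDT4 is, while RefSeq places the named gene, now NUDT4B, on chromosome 1.

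**Figure D4:**
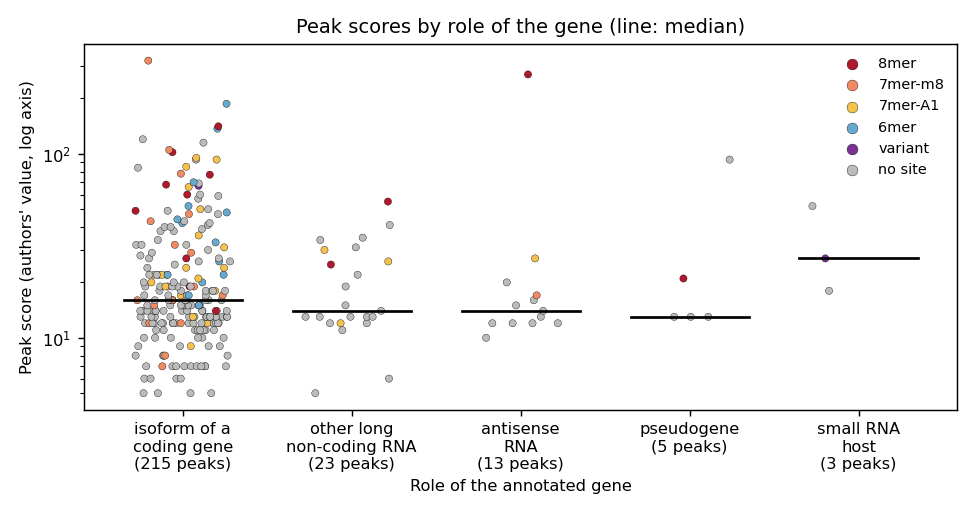
Score of each peak (authors' value, log axis) by role of the annotated gene, with a line at the median, coloured by longest site. Medians run from 13 in pseudogenes to 27 in the 3 host peaks, and PRC1-AS1 at 270 is the one peak above 27 in the group named as antisense.

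The strand of each gene was compared with that of its peak, using gene orientations from GENCODE 29 and RefSeq, since hg19 orientations were not used. They were the same for 240 peaks and opposite for 18 peaks of 14 genes, and LINC00999 was not found. The opposite-strand peaks included 6 of the 13 antisense peaks, 8 of the 23 other long non-coding RNA peaks and 4 isoform peaks (LAIR1, TIMM23, MMP24-AS1 and INTS8). For 15 of the 18 an annotated gene overlaps on the peak's strand, and none was found for LAIR1, LINC00909 and TIMM23. A gene that runs the other way on hg19 would be counted as opposite wrongly, and this was not checked. The highest of the 18 is PRC1-AS1, whose overlapping gene PRC1 encodes a microtubule-bundling protein of cell division. The bases of the 8mer listed for PRC1-AS1 occur in the 3' UTR of PRC1 and not in PRC1-AS1 transcripts.

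All 4 sites listed in such peaks were found in an overlapping gene on the peak's strand, and 0 in the annotated gene. The 7mer-A1 of SLC25A30-AS1 occurs in the coding sequence of SLC25A30, the 6mer of MMP24-AS1 (score 17) in the 3' UTR of MMP24, and the 7mer-A1 of LOC100129931 (score 26) in the 3' UTR of TBC1D14. For LOC100129931, GENCODE 29 gave no transcript of its own to search. Under their own names, SLC25A30 had a coding exon peak of 45 with a 7mer-A1, TBC1D14 one of 30 with a 6mer, and PRC1 one of 14 with no site. By these orientations the peaks named PRC1-AS1 and SLC25A30-AS1 run on the strand of the coding gene.

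Of the 161 genes, 104 had 1 peak, 37 had 2 and 20 had 3 or more. TUG1, a long RNA of the nucleus and cytoplasm, had the most with 8, whose scores were 8, 11, 13, 14, 15, 18, 18 and 19; the one 7mer match, a 7mer-m8, was in the peak of 8. TMEM168 had 11, 40, 69 and 84 without a site, and the peak of 69 is 10 nt long. SOAT1, for a cholesterol acyltransferase, had a 6mer in a peak of 70, a 7mer-A1 in one of 36 and no site in those of 10, 10 and 17. PAIP2, for an inhibitor of the poly(A)-binding protein, had 28 at its highest without a site, and its 7mer matches were in peaks of 19 and 7.

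TFAM had 66 with a 7mer-A1 and 38, 14 and 13 without. CDK2AP1, for a CDK2-associated protein, had 60, 41 and 22 without a site and 44 with a 6mer, and TROVE2, for the Ro RNA-binding protein, had 59 without and 52 with a 6mer, besides 16 and 11. KHDRBS1, for the RNA-binding protein Sam68, had 42 with a 6mer and 25 and 24 without, and BCAP29 had 33 with a 6mer and 14 and 7 without. The nucleoside transporter gene SLC29A2 had 29, 34 and 38, all without a site. Of the remaining genes with 3 peaks, PRPF38B had its 7mer-A1 in the middle peak of 6, 13 and 19, CSE1L had a 7mer-m8 in the highest of 7, 7 and 12, and neither RASSF3 (8, 9 and 19) nor C11orf57 (7, 10 and 13) had a site.

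**Figure D5:**
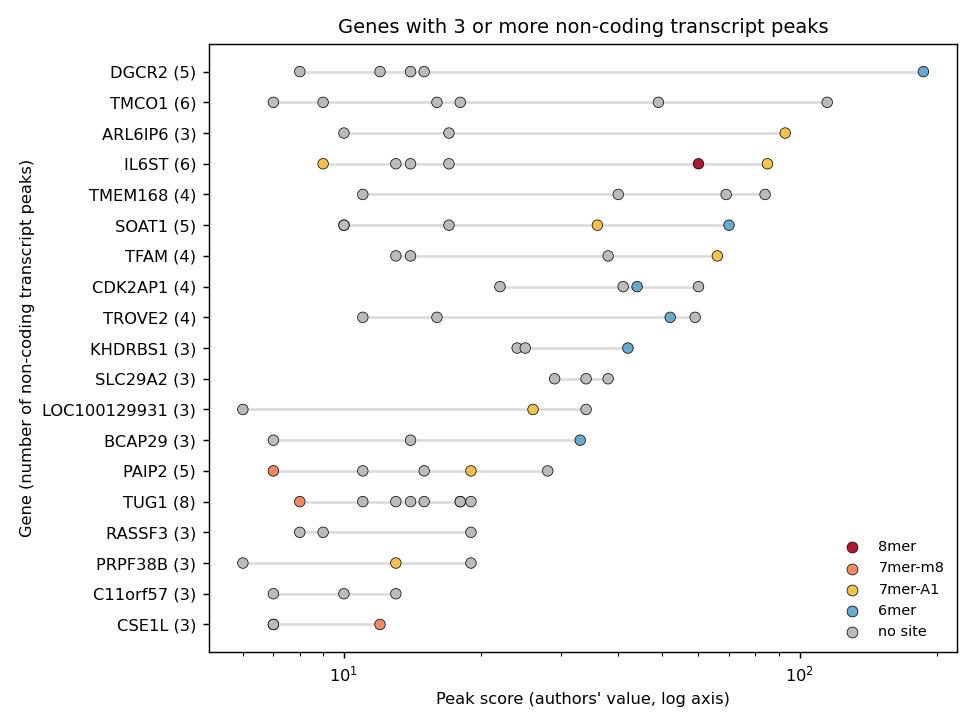
Scores (authors' value, log axis) of the peaks of 19 of the 20 genes with 3 or more non-coding transcript peaks, coloured by longest site. ARL6IP6 (93) and TFAM (66) have their 7mer match in the highest peak, whereas TUG1 has it in the lowest (8).

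Within genes, peaks with a 7mer match mostly scored higher. Of 25 genes with peaks of both kinds, the mean log2 score was higher with a 7mer match in 20 and lower in 5 (BARD1, PAIP2, PHF1, RBM5 and TUG1), with a median difference of 1.00 on the log2 scale. The highest peak of the gene had a 7mer match in 17 of the 25. Peaks of a gene are not independent: 132 of the 259 (51.0%) had another listed peak within 20 nt on the same strand. Of the 47 peaks that scored under 12, 40 had a higher peak within 500 nt, as did 47 of the 212 that scored 12 or more. A low peak is exceeded more easily by any neighbour. The contrast thus does not tell whether low peaks lie near other peaks more often.

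Lists of well-known non-coding RNAs were looked up among the member genes. The share of all annotated non-coding genes with such a peak was not computed. The counts below thus do not tell whether these lists had few or many members. Peaks in non-coding transcripts were listed for 3 of 27 small RNA hosts (DLEU2, MIRLET7BHG and SNHG16), 3 of 24 abundant long non-coding RNAs (HCG18, KCNQ1OT1 and TUG1), 0 of 16 long non-coding RNAs linked to prostate cancer and 0 of 21 spliceosomal and other structural small RNAs. An absent gene means only that no non-coding transcript peak carries its name, since the lowest signal that could have been listed is unknown. HCG11, on the list of abundant long non-coding RNAs, had a promoter peak of 14.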

How the data were processed

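AGO2 HITS-CLIP was measured in 6 libraries of 22RV1 cells. The authors deposited 1 list of merged peaks on hg19 with a score per peak, an annotation and listed sites. The tools in the submitters' processing notes are TopHat2 2.0.9, MACS2, cutadapt 1.8.1, SAMtools and FastQC, without order or settings. The meaning of the score and the site search are not given in the sources used here, and depth is unknown. There were 0 columns of other samples.

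Members and gene lists were chosen with earlier results of these data known. Gene types came from the RefSeq table of GRCh38.p14, because the list has no such column, as had been planned; 227 peaks matched by accession, 24 by symbol and 8 by older symbol. Antisense RNAs and hosts were told by name. Shares have exact Clopper-Pearson 95% intervals, and no test was made. Named were the genes of the 12 highest peaks, of every 8mer and of the 10 highest 7mer matches, the 5 highest of each role, genes with 3 or more peaks, and list members. The peaks of 1 gene enter the counts but are not reported here. Others (such as those with opposite strands, disagreeing names or lower scores with a match) were named after their values were seen. Site classes were recovered for 100% of 400 simulated sites. Python 3.11.15, pandas 2.3.3, numpy 2.4.6, scipy 1.17.1, matplotlib 3.10.9 and GENCODE 29 were used. Alternatives were peaks above the median score, 1 peak per gene, other site classes, every non-coding accession and other sources of gene type.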

Additional observations from a re-analysis of the deposited data

How the results depend on the processing

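Of 38 alternative values, 24 stayed within the interval of the reported value and 14 moved beyond it. With only peaks above the median score of all peaks, 32.1% had a 7mer match, the median score was 27, and it was 24 without a site. With the highest peak of each gene, the share was 26.1% and the median score 19. With all 555 peaks of a non-coding accession, introns and promoters included, 13.7% had a 7mer match, the median score was 14 and 53.7% came from protein-coding genes. The share of 20.5% with a 7mer match was 5.02% for 8mers alone, 26.6% with 6mers and 27.4% with any site, and the median score of 8mer peaks was 55.

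Alternatives chosen after seeing the data left out the peaks whose gene runs on the other strand, which moved the protein-coding share to 87.9%, and counted every gene that spans a small RNA as a host, which moved the host share to 5.79%. Gene types from GENCODE 29 gave a protein-coding share of 79.9%. Types from the RefSeq table had been planned as an alternative and are the main source. Leaving out a library was not possible without values per library. No paired analysis was possible because the list holds no value per library. The unknown depth limits any reading of a peak that was not listed.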
